A study of Mus musculus with 22 samples.

Results

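The response to lipopolysaccharide (LPS) that remained in the presence of lactic acid (LA) was measured as the RNA difference between macrophages given LPS and LA together and macrophages given LA alone. The comparison used the 4 RNA-seq libraries of these 2 groups, 2 per group, out of 10 RNA libraries in 5 groups, and covered the 12213 of 16059 listed genes that passed a filter on low counts over the 10 libraries. The cells were bone marrow-derived macrophages of C57/BL6 mice, phagocytes grown from marrow for 7 days with L929 supernatant and replated 1 day before treatment. Every group, the controls included, shared that culture. The LPS+LA group received 100 ng/ml LPS with 10 mM L-(+)-lactic acid and the LA group received LA without LPS, each for 3 h. The labels give no dose for LA alone and no pH for either LA group. As the reference for the response without LA, macrophages given LPS only were compared with untreated control macrophages, again 2 libraries per group. The labels do not state whether the 2 replicates of a group are independent cultures, and the p-values then reflect only the spread from library to library, which may be technical. In bulk RNA, fewer responding cells and less RNA per cell cannot be told apart.

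LPS, a component of the outer membrane of Gram-negative bacteria, is sensed by CD14, MD-2 and Toll-like receptor 4 on the macrophage surface. The adaptor MyD88 carries the signal to NF-kB and AP-1, which switch on cytokine and chemokine genes. The adaptor TRIF carries it to IRF3, which switches on interferon beta, and secreted interferon then drives a further set of antiviral genes. Lactic acid is the acid form of lactate, the end product of glycolysis that accumulates in inflamed and tumour tissue. It adds both lactate and protons to the medium, and macrophages carry transporters and receptors for each.

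The 4 libraries held 18668666 to 19714576 counts. Levels below are CPM, counts scaled to a common library size with TMM factors, and log2 values are fold changes fitted by edgeR. The standard error (SE) beside them is the absolute log2 divided by the square root of the F value of edgeR's test. It is approximate and may be too small where a group has few counts. A gene is called where the Benjamini-Hochberg adjusted p of edgeR's quasi-likelihood test was under 0.05. All 10 macrophage identity markers were present in the 4 libraries and summed to 14982 to 15546 CPM in LA and 17859 to 18421 CPM in LPS+LA. Marker lists of 8 other blood and connective tissue cell types summed to at most 5.16 CPM each in any of the 4. Neuron and glia markers summed to 59.1 to 64.5 CPM in LA and 40.5 to 45.1 CPM in LPS+LA, nearly all of it Mbp (60.6 and 53.8, then 41.75 and 38.09 CPM). Their part in the results was not tested. Control replicate 1 also held low levels of neuronal transcripts such as Slc17a7 (7.88 CPM against 0.241 CPM in control replicate 2). So did LPS+HCl replicate 2 (7.84 CPM), of a group not compared here. Both enter the LA comparison only through the shared count filter, scaling and estimate of spread.

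Macrophages in LA still mounted a broad response to LPS. Chemokine, cytokine, interferon-response and NF-kB feedback genes rose, and among the risers Acod1, Gbp5, Ccl5 and Cxcl10 did so by log2 7 or more. The largest falls included the receptor genes Epha2 and Thbd and the transcription factor gene Klf4. edgeR's quasi-likelihood test called 1941 genes higher (15.9% of those tested) and 1785 lower (14.6%), together 3726 genes (30.5%). Of these, 707 rose (5.79%) and 337 fell (2.76%) by log2 1 or more. Scaling by total count, which moved the median log2 of all genes from -0.0135 to -0.223, gave 1294 higher and 4260 lower, so the balance of rises and falls rested on the scaling. The changes below are relative to the median gene.

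Most genes called in LA were called in the same direction without LA, where the changes were larger. Without LA the same test called 3963 genes higher (32.4%) and 3951 lower (32.4%), from libraries that the LA comparison does not share. The 1703 genes that rose in both settings made up 87.7% of the risers in LA and 43% of the risers without LA. The 1407 genes that fell in both made up 78.8% of the fallers in LA and 35.6% of those without. In opposite directions stood 169 genes, 71 higher in LA and lower without it and 98 of the reverse kind. The 1792 genes that LPS alone raised by log2 1 or more had a median log2 of 2.19 without LA and 0.741 in LA, and 1247 of them were called higher in LA, 517 were not called and 28 were called lower. Chosen the other way round, the 707 strong risers in LA had a median of 1.9 in LA and 3.35 without it, and 669 of them were also called higher without LA. The 337 strong fallers had a median of -1.29 in LA and -2.02 without it. Across the 12213 genes, which are not independent replicates, the 2 effects correlated with r = 0.692 (Spearman's rho = 0.633), and the major axis through them had a slope of 0.414, that is, 0.414 log2 units in LA for each unit without. Both LPS effects share the assay and TMM scaling but no library.

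**Figure D1:**
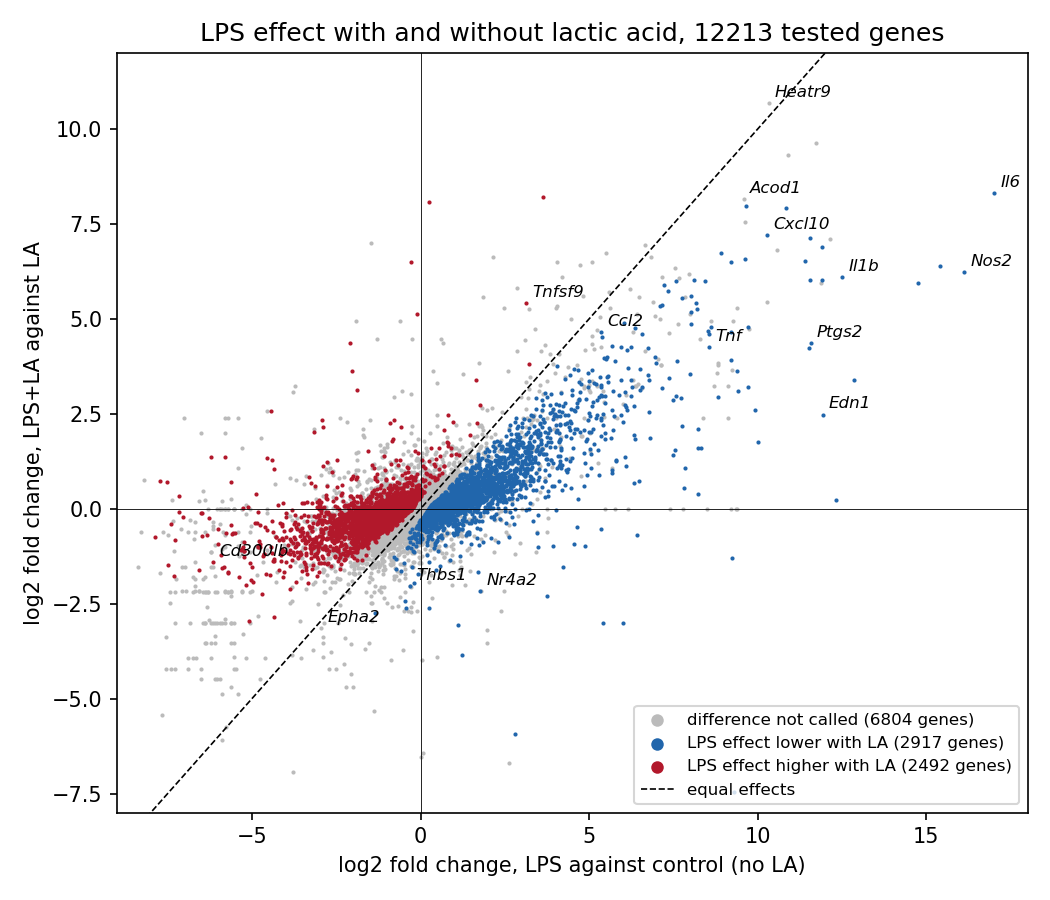
Each point is 1 of 12213 genes, with the log2 fold change of LPS against control on the horizontal axis and of LPS+LA against LA on the vertical axis. Colours mark genes whose LPS effect was called lower (2917) or higher (2492) in LA than without it, and the cloud of strong risers lies below the dashed line of equal effects. Fitted values of genes without counts in a baseline group, such as Heatr9 and Il6, depend on the prior count.

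The difference between the 2 LPS effects was tested as an interaction of the same fit. It was lower in LA for 2917 genes (23.9%) and higher for 2492 (20.4%), 44.3% of all genes in either direction. With total-count scaling the median difference of all genes moved from -0.00194 to 0.508 log2 and the calls to 1294 lower and 5917 higher, so the split between lower and higher differences rested on the scaling as well. The 19 genes named for their difference below or in the closing observations were called in the same direction under both scalings. Differences of other single genes are given with TMM scaling only. Small ones, such as those of Ccl2 and Txnip, may depend on it.

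Cytokine genes rose with LPS in both settings. Of 23 listed inflammatory cytokines 22 were tested, and in LA 19 rose and 1 fell, a count that total-count scaling left at 19 and 1. Their median log2 was 4.235 in LA, beside -0.0135 for all genes tested. Without LA their median was 6.785, or 6.178 with the 4 members that had no control count set at their lower bound. The LPS effect was called smaller in LA for 15 members and larger for 1 (15 and 1 with total-count scaling).

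Tnf, the central early inflammatory cytokine, stood at 69.4 and 100.5 CPM in the LA libraries and at 1865 and 1391 CPM in LPS+LA. Its rise in LA was log2 4.26 (SE 0.23, edgeR adjusted p = 2.53e-05), while LPS alone took it from 29.3 and 29.4 CPM to 11340 and 10600 CPM (log2 8.54). The groups did not overlap in either setting, and LPS+LA stayed below LPS in both libraries. Il1b, which encodes the secreted interleukin of fever and neutrophil recruitment, had 5.93 and 8.79 CPM in LA and 478 and 525 CPM in LPS+LA (log2 6.09, SE 0.14). Its sister gene Il1a, which encodes a cell-bound and released alarmin, had 0.835 and 1.25 CPM in LA and 81.7 and 94.7 CPM in LPS+LA (log2 6.40). Without LA, LPS brought Il1b to 3836 and 3749 CPM and Il1a to 2002 and 2023 CPM. Both interleukin 1 genes were therefore far above their LA baseline in each LPS+LA library and below each LPS library.

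Il6, which encodes the cytokine of the acute phase response, had 1 count over the LA libraries and 338 counts over the LPS+LA libraries (9.63 and 8.32 CPM). That is a ratio of 405.2, with a 95% counting interval from 72.24 to 16050. With LPS alone Il6 reached 854.6 and 800.5 CPM from no control count, at least 13710-fold higher when the absent counts are set to a floor of 3 for the group. Such intervals and floors cover counting error only. Il12b, the shared subunit of interleukins 12 and 23, which direct T cell responses, went from 0.615 and 0.0893 to 24.5 and 19.5 CPM in LA (log2 5.93), against 765.2 and 705.2 CPM with LPS alone. Its log2 in LA was 7.85 without LA replicate 1 and 5.15 without LA replicate 2. Csf2, the granulocyte-macrophage growth factor, was barely present in LPS+LA, with 11 counts against 1 in LA (ratio 13.19, interval 1.917 to 567.7), and missed the threshold without LA replicate 1. With LPS alone it reached 49.1 and 43.4 CPM.

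A few cytokines kept their LPS level in LA or exceeded it. Tnfsf9, the ligand of the costimulatory receptor 4-1BB, stood at 23.2 and 26.2 CPM in LA and at 994 and 1102 CPM in LPS+LA, but at only 202 and 207.7 CPM with LPS alone. Its LPS effect was larger in LA by log2 2.28 (SE 0.11, edgeR adjusted p = 1.32e-13). Ifnb1, the interferon beta gene, had 0.132 and 1.92 CPM in LA, 66.7 and 59.4 CPM in LPS+LA, and 22.2 and 25.4 CPM with LPS alone. It was thus the higher in LPS+LA of the 2 LPS groups (log2 1.40, edgeR adjusted p = 0.0219). LPS alone raised it from no control count, at least 393.9-fold. The difference between its LPS effects, a fitted log2 of -5.95 (SE 3.12), did not pass the test (edgeR adjusted p = 0.196). An enlarged Ifnb1 response in LA was therefore not shown. The rise of Ifnb1 in LA was log2 5.94 (edgeR adjusted p = 6.5e-04), but the LA libraries differed widely, and it was 5.03 without LA replicate 1 and 8.83 without LA replicate 2. In a fit of the 4 libraries alone it did not pass (edgeR adjusted p = 0.0519, range over its alternatives 1.66e-16 to 0.0519). Il10, the main anti-inflammatory cytokine of macrophages, went from 0.483 and 1.30 to 14.0 and 19.0 CPM in LA, a range that overlapped the 17.0 and 17.5 CPM of LPS alone. Its 2 LPS effects, log2 4.21 in LA (5.08 without LA replicate 2) and 5.14 without LA, differed by -0.93 (SE 0.54), which did not pass the test (edgeR adjusted p = 0.179). Osm, an interleukin 6 family cytokine, was the 1 member that fell in LA, from 20.5 and 21.6 to 13.3 and 9.43 CPM (log2 -0.89), whereas LPS alone raised it (log2 1.84).

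In 18 of the 22 tested cytokines LA replicate 2 stood above LA replicate 1, with a median gap of log2 0.53, where 5908 of all 12213 genes did (median -0.006). Its part in the list's result was not tested, but without LA replicate 1 the list held 18 risers and 1 faller and without LA replicate 2 it held 19 and 1.

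The promoters below are shown because an ATAC-seq peak, a stretch of accessible DNA, lay over the gene start in each of the 3 LPS+LA samples and in 0 of the 3 LA samples. They belong to the first 4 such genes among those strongest risers and panel LPS genes whose start was assessed. No start was assessed for others of these genes, among them Adamts4, Ccl5, Lipg, Cd69, Nos2, Ccl2 and Il10. Whether these had a gained start peak is therefore not known. Each line gives the 250 bases before the start that the RefSeq promoter table gives the gene (GRCm38.p6), on the gene's own strand, 5' to 3', with the match to a searched motif in capitals.
Heatr9: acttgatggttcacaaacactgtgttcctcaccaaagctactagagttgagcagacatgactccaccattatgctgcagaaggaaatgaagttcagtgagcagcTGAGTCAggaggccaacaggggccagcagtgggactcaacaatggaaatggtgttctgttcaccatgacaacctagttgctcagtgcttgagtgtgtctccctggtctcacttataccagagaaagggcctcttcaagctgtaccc
Il1a: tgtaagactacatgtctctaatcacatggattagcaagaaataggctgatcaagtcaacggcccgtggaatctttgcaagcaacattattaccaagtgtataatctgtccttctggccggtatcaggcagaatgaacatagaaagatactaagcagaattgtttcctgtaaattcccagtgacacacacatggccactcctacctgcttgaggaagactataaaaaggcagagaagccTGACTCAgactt
Il1b: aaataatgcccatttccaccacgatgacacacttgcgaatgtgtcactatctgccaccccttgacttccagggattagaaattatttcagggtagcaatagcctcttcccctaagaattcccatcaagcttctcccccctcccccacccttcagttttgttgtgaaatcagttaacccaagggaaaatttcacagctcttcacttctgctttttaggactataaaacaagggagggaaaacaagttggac
Ifnb1: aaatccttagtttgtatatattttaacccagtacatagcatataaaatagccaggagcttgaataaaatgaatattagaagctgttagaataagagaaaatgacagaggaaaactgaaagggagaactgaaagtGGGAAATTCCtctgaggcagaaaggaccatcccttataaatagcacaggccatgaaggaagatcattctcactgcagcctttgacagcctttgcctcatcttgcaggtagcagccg
The Heatr9 stretch is chr11:83522100-83522349 on the minus strand, and its capitals mark the AP-1 motif TGANTCA at -146 to -140 from the start. The RefSeq gene bounds of Heatr9 run to 83522494, so this stretch lies inside them. Its positions hold only for the start in the promoter table. In the Il1a stretch, chr2:129309973-129310222 on the minus strand, the capitals mark TGANTCA at -12 to -6. The gene bounds of Il1a run to 129310186, so most of this stretch lies inside them as well. The Il1b stretch is chr2:129371140-129371389 on the minus strand, and none of the 4 searched motifs matched there. The Ifnb1 stretch is chr4:88522795-88523044 on the minus strand, with the NF-kB consensus in capitals at -116 to -107. The peaks at Ifnb1 ran from 88522589 to 88523154 in LPS+LA sample 1, from 88522601 to 88523089 in sample 2 and from 88522703 to 88523089 in sample 3, with peak scores, the authors' own values, of 24.3, 44.1 and 47.2. At Il1b the scores were 3.87, 28.1 and 14.5, at Il1a 17.9, 15.7 and 11.5, and at Heatr9 25.6, 46.6 and 42.6. In LA RNA these genes ranged from no count for Heatr9 to 5.93 and 8.79 CPM for Il1b, and all 4 rose in LPS+LA.

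Chemokines showed the greatest median rise of the 21 gene lists in LA. Of 20 listed, 18 were tested, 15 rose and 0 fell (15 and 1 with total-count scaling), and the median log2 was 4.629 in LA and 7.713 without. The effect was called smaller in LA for 14 members and larger for 0, or for 12 and 1 with total-count scaling. Cxcl10, the interferon-induced attractant of T cells, went from 35.3 and 55.7 CPM in LA to 6809 and 6557 CPM in LPS+LA (log2 7.20, SE 0.29), and LPS alone reached 14362 and 14516 CPM. Per length, Cxcl10 averaged 11775 TPM, a unit scaled by transcript length, in LPS+LA and was the 5th most abundant transcript there, and Ccl4 was the 10th with 7193 TPM. Ccl5, an attractant of T cells and monocytes, went from 2.02 and 4.33 to 775.7 and 768.8 CPM (log2 7.93, or 8.57 without LA replicate 2).

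Single chemokines differed widely in how much of the response remained. Ccl2, which recruits monocytes through CCR2, stood at 46.7 and 57.1 CPM in LA and at 1331 and 1281 CPM in LPS+LA (log2 4.65, SE 0.09). LPS alone gave 2443 and 2406 CPM from 61.9 and 57.2 CPM (log2 5.35), a difference of -0.70 log2 between the effects. Ccl7, another ligand of CCR2, rose by log2 5.79 in LA and 6.21 without, and the difference did not pass the test. Cxcl1, an attractant of neutrophils, had 0.439 and 0.268 CPM in LA and 45.2 and 40.2 CPM in LPS+LA, against 519.6 and 461.3 CPM with LPS alone, and the difference between its LPS effects was log2 -5.03. Cxcl2 and Cxcl3, of the same family, rose by log2 4.64 and 4.22 in LA and by 9.20 and 11.53 without. Cxcl9, another interferon-induced attractant of T cells, had 2 counts in LA and 265 in LPS+LA (ratio 158.9, interval 43.55 to 1319), and its 5.78 and 8.27 CPM compare with 474.8 and 532.4 CPM in LPS. Ccl17, a chemokine for type 2 T cells, is the extreme case: LPS alone raised it from no count to 35.5 and 29.0 CPM, at least 534.2-fold, and in LPS+LA it had 0.161 and 0 CPM, beside 0.132 and 0 CPM in LA. The difference between its LPS effects was log2 -12.08, a fitted value that is no bound and that did not pass without LA replicate 1 (log2 -8.55).

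**Figure D2:**
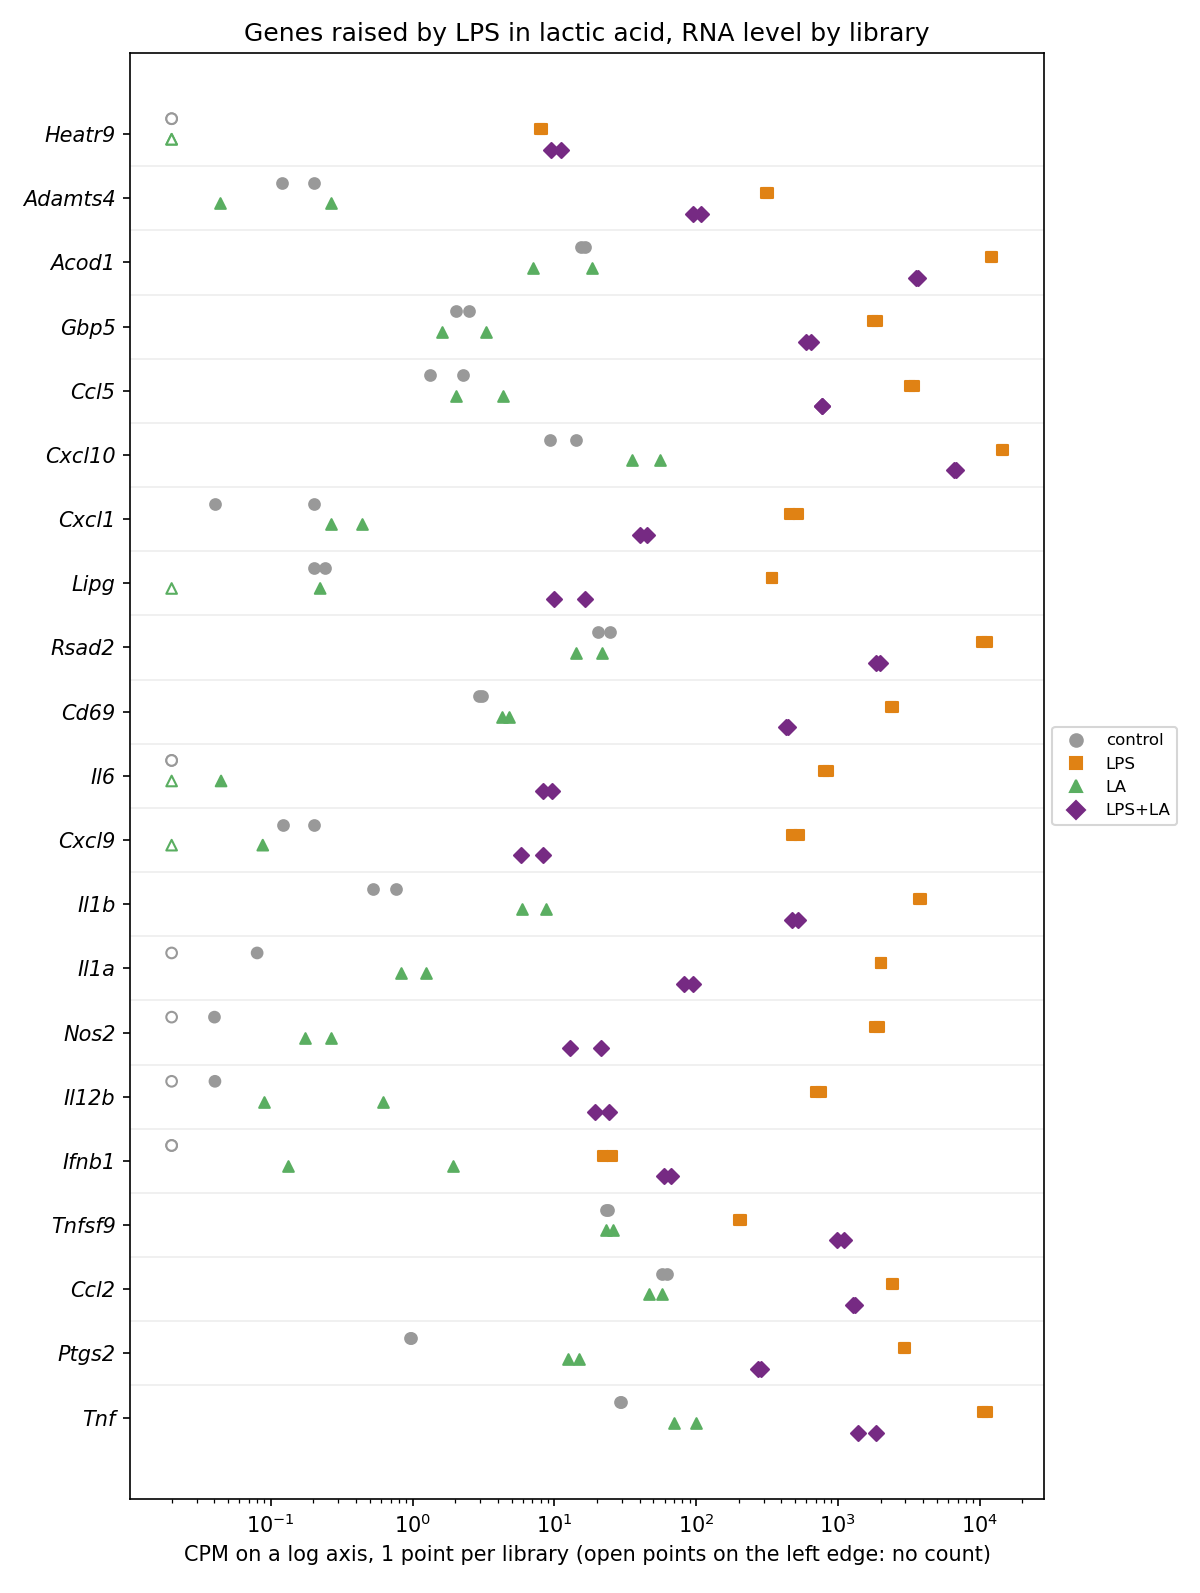
RNA level in CPM, on a log axis, of 21 genes that rose with LPS in LA, 1 point per library for control, LPS, LA and LPS+LA (2 each); open points on the left edge mark libraries without a count. For each gene the LPS+LA diamonds lie to the right of the LA triangles, and only for Heatr9, Ifnb1 and Tnfsf9 do they also lie to the right of the LPS squares.

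The 10 largest rises, ranked by fitted log2 among genes of at least 10 CPM, were led by Heatr9, Adamts4, Acod1, Gbp5 and Ccl5. Heatr9 (NCBI Gene 629303, chromosome 11, 83511679 to 83522494) had no count in LA and 389 counts in LPS+LA (11.2 and 9.48 CPM), at least 155.5-fold higher. With LPS alone it rose at least 133.3-fold, to 7.97 and 8.13 CPM, so the LPS+LA libraries were not below the LPS libraries. Adamts4, a protease that cleaves cartilage proteoglycans, had 0.0439 and 0.268 CPM in LA and 95.3 and 108.5 CPM in LPS+LA (log2 9.30, and 8.54 or 10.98 without LA replicate 1 or 2). LPS alone gave 312.1 and 322.8 CPM, and the difference between its effects did not pass (-1.59, edgeR adjusted p = 0.0963). Acod1 (NCBI Gene 16365, chromosome 14, 103047012 to 103056573), which makes the antimicrobial metabolite itaconate, had 7.12 and 18.4 CPM in LA and 3673 and 3544 CPM in LPS+LA (log2 8.15, or 8.98 without LA replicate 2). LPS alone brought Acod1 to 12106 and 12276 CPM. Lipg, endothelial lipase, went from 0 and 0.223 to 9.90 and 16.5 CPM (log2 6.82, and 5.85 or 11.02 without LA replicate 1 or 2), far below the 344.7 and 344.4 CPM of LPS. Cd69, an early activation receptor, had 4.31 and 4.82 CPM in LA and 430.6 and 444.1 CPM in LPS+LA (log2 6.58, SE 0.09), and 2380 and 2451 CPM in LPS. The other members, Cxcl10, Cxcl1 and Ccl5 above and Gbp5 and Rsad2 below, likewise had LPS+LA below LPS. That LA lay below LPS+LA without overlap was a condition of the ranking.

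Type I interferon response genes rose almost throughout. Of 37 listed, 35 were tested, 34 rose and 0 fell in LA (33 and 0 with total-count scaling), with a median log2 of 1.601 in LA and 4.136 without. For 34 members the LPS effect was smaller in LA and for 0 larger, or 32 and 0 with total-count scaling. Rsad2, the antiviral enzyme viperin, went from 14.2 and 21.7 CPM in LA to 1861 and 1977 CPM in LPS+LA (log2 6.74, SE 0.19), and reached 10371 and 11346 CPM with LPS alone. Gbp5, a GTPase of inflammasome assembly, had 1.63 and 3.30 CPM in LA and 592.4 and 649.4 CPM in LPS+LA (log2 7.98, or 8.57 without LA replicate 2), and 1768 and 1884 CPM in LPS. For both, each LPS+LA library stood below each LPS library. Their lack of overlap between LA and LPS+LA was a condition of the choice among the largest rises.
Cmpk2, a mitochondrial nucleotide kinase, went from 8.70 and 9.91 to 325.2 and 391.1 CPM in LA, against 6566 and 6856 CPM with LPS alone. Ifit2, which blocks translation of viral RNA, rose from 21 and 24.7 to 854.7 and 977.6 CPM (log2 5.33). Irf7, the amplifier of interferon genes, rose by log2 1.40 in LA and 4.14 without. Bst2, the virus-tethering membrane protein, was the 1 member that did not pass, at 168.1 and 180.8 CPM in LA and 168.2 and 195.7 CPM in LPS+LA. LA replicate 2 lay above LA replicate 1 for 24 of the 35 members (median log2 0.219). Ifnb1, the upstream cytokine, thus stood higher in LPS+LA than in LPS while these response genes stood lower in LPS+LA, with a median of -1.84 log2.

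NF-kB subunits, inhibitors and feedback genes rose nearly throughout as well. All 30 listed genes were tested and 29 rose and 0 fell (28 and 1 with total-count scaling), with a median log2 of 2.057 in LA and 4.025 without. For 29 of the 30 the LPS effect was smaller in LA and for 0 larger, or 27 and 1 with total-count scaling. Nfkbiz, an IkB family cofactor that licenses secondary response genes, had 26.6 and 25.4 CPM in LA and 1122 and 1035 CPM in LPS+LA (log2 5.37, SE 0.08), beside 1634 and 1654 CPM in LPS. Socs3, which blocks interleukin 6 family signalling, had 23.8 and 26.5 CPM in LA, 1533 and 1674 CPM in LPS+LA and 2375 and 2435 CPM in LPS. Tnfaip3, the ubiquitin editor A20 that shuts off NF-kB signalling, had 39.0 and 38.9 CPM in LA, 872.6 and 1023 CPM in LPS+LA and 2390 and 2457 CPM in LPS. For Nfkbiz, Socs3 and Tnfaip3 the LPS+LA level was nearer to that of LPS than for Tnf or Il6. There LPS+LA held 1865 and 1391 of 11340 and 10600 CPM, and 9.63 and 8.32 of 854.6 and 800.5 CPM. The same held for genes outside this list, such as Ccl2 and Icam1, so it was not particular to NF-kB feedback genes. Among the subunits Nfkb1, Nfkb2, Relb and Rel rose by log2 1.71 to 1.83, and Rela by 0.87. Cyld, a deubiquitinase, was the 1 member that did not pass (log2 -0.18).

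Genes of LPS sensing rose more often than they fell. Of 24 listed and tested genes of the LPS receptor and Toll signalling, 15 rose and 1 fell (12 and 3 with total-count scaling). The median log2 was 0.628 in LA and 0.983 without. The LPS effect was called lower in LA for 12 members and higher for 5. With total-count scaling it was lower for 7 and higher for 10, so the direction of this difference rested on the scaling. Tlr4, the LPS receptor, did not pass in LA, at 41.9 and 44.1 CPM in LA and 40.1 and 41.7 CPM in LPS+LA (log2 -0.07, edgeR adjusted p = 0.631), and both stood below the 107.5 and 96.0 CPM of control. With total-count scaling its fall of log2 -0.28 passed (edgeR adjusted p = 0.0239, range over its alternatives 0.0239 to 0.881). Cd14, its coreceptor, went from 855.8 and 960.7 CPM in LA to 3310 and 3377 CPM in LPS+LA, above the 2539 and 2537 CPM of LPS. Tlr2, the receptor of bacterial lipoproteins, had 1288 and 1212 CPM in LPS+LA and 1269 and 1308 CPM in LPS, overlapping ranges, from 152.9 and 149.0 CPM in LA. Tlr9, the receptor of unmethylated DNA, rose more in LA than without (log2 1.12 against 0.42, difference 0.70). Irak2, a kinase of the MyD88 complex, rose by log2 1.44 in LA and 3.52 without, and Ikbke, a kinase upstream of IRF3, by 1.99 and 3.54.

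Antimicrobial and lipid mediator effector genes differed in how much of the LPS response remained. Of 24 listed, 23 were tested, and 17 rose and 1 fell in LA (15 and 1 with total-count scaling), with a median log2 of 1.432 in LA and 3.814 without. The effect was smaller in LA for 16 members and larger for 0, against 13 and 4 with total-count scaling. Nos2, the inducible nitric oxide synthase, had 0.176 and 0.268 CPM in LA and 13.01 and 21.33 CPM in LPS+LA (log2 6.24, SE 0.38), where LPS alone reached 1832 and 1936 CPM. Ptgs2, the inducible cyclooxygenase of prostaglandin synthesis, had 12.4 and 14.8 CPM in LA, 285.5 and 273.8 CPM in LPS+LA and 2979 and 2947 CPM in LPS. Ptges, the next enzyme of that pathway, went from 2.90 and 2.37 to 43.6 and 40.4 CPM in LA, close to the 51.4 and 50.6 CPM of LPS. Among these 3 genes the gap from LPS+LA to LPS was widest for Nos2 and narrowest for Ptges. Ptgs1, the constitutive cyclooxygenase, was the 1 member that fell.

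Antigen presentation and costimulation genes rose only slightly. Of 22 listed, 21 were tested and 17 rose and 0 fell in LA, but 10 rose and 0 fell with total-count scaling, and the median log2 was 0.373 in LA and 2.132 without. The effect was smaller in LA for 19 members and larger for 0 (16 and 0 with total-count scaling). Costimulatory and adhesion genes made up the strong end. Icam1, the adhesion molecule for T cells, went from 141.4 and 139.1 to 2193 and 2116 CPM (log2 3.94). Cd40, which receives help from T cells, went from 4.44 and 6.16 to 56.4 and 66.9 CPM, against 876.5 and 861.0 CPM with LPS alone. Cd274, the inhibitory ligand PD-L1, went from 18.6 and 15.4 to 177.1 and 214.8 CPM, against 1119 and 1146 CPM. The peptide-loading genes Tap1 and Tap2 rose by log2 0.73 and 0.29 in LA and by 3.03 and 2.38 without, and the class I light chain B2m did not pass in LA (log2 0.15).

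**Figure D3:**
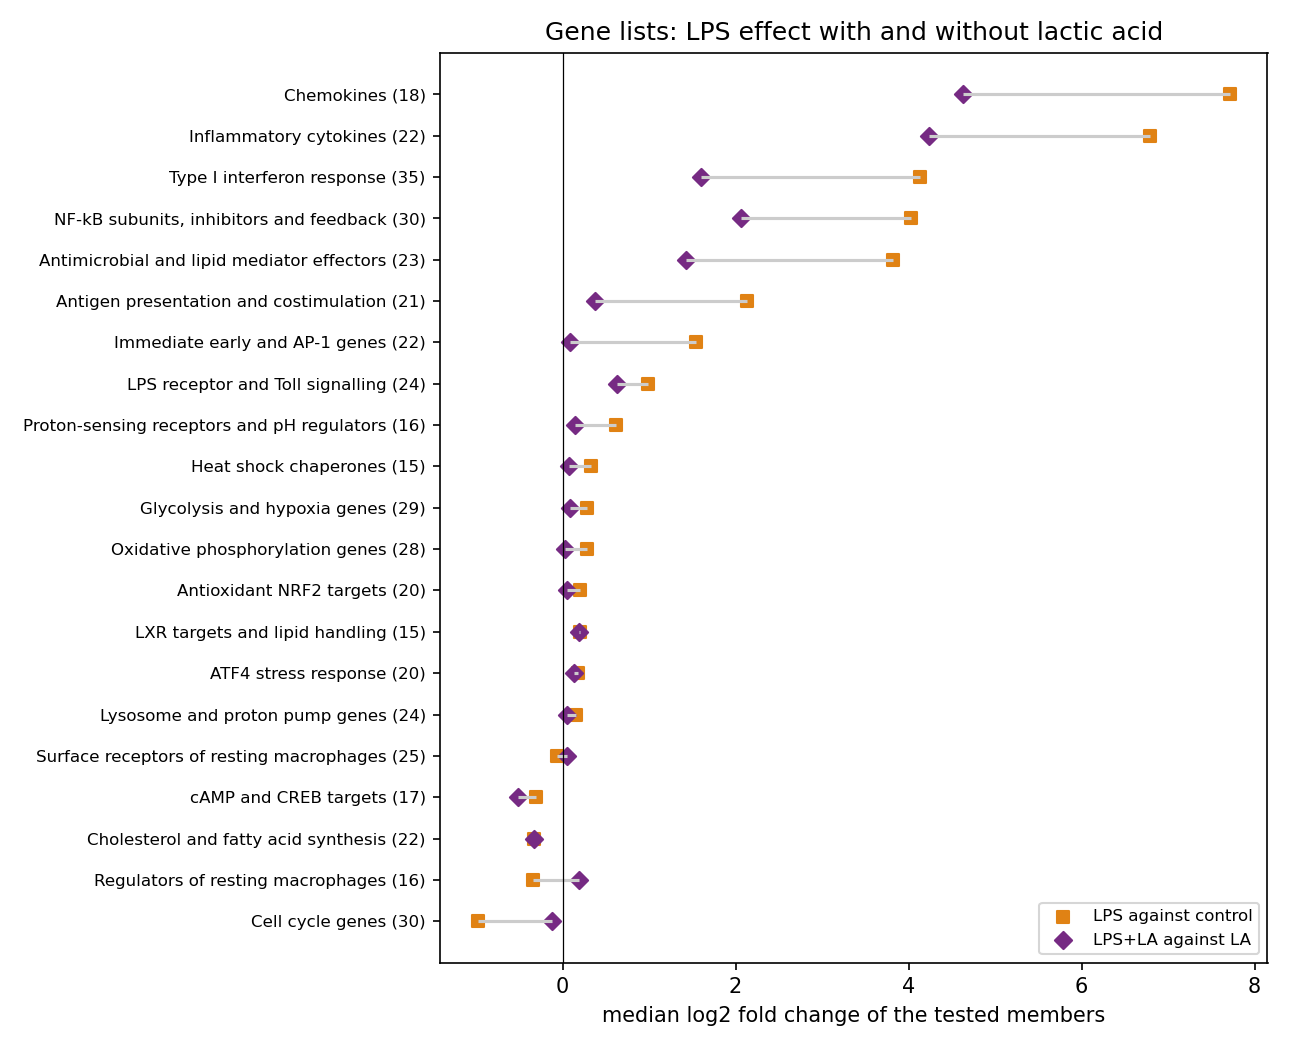
Median log2 fold change of the tested members of 21 gene lists (number of members in brackets) with LPS against control (squares) and with LPS+LA against LA (diamonds). Medians are with TMM scaling. The 8 lists with the highest medians without LA all lie nearer to 0 in LA, from chemokines (7.713 and 4.629) to LPS receptor and Toll signalling (0.983 and 0.628). The cell cycle list does so from the other side (-0.977 and -0.121). For LPS receptor and Toll signalling the balance of called differences turned with total-count scaling.

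The falls in LA were led by Epha2, Thbd, Plk3, Trib1 and Klf4, genes whose LA level lay above control. Epha2 (NCBI Gene 13836, chromosome 4, 141301221 to 141329384), a receptor tyrosine kinase, stood at 70.4 and 68.0 CPM in LA and fell to 10.9 and 4.74 CPM in LPS+LA (log2 -3.15, SE 0.26, and -3.85 without LPS+LA replicate 1). Control held 3.48 and 4.69 CPM of it. Thbd, the anticoagulant receptor thrombomodulin, fell from 40.5 and 42.0 to 5.25 and 6.11 CPM (log2 -2.86), with 16.2 and 17.4 CPM in control. For Plk3, a stress kinase, the values were 78.2 and 76.5 CPM in LA, 13.4 and 9.64 CPM in LPS+LA and 12.9 and 14.2 CPM in control. In LPS+LA the Plk3 values thus overlapped those of control, and the Epha2 values lay above them. Trib1, a pseudokinase that promotes the decay of C/EBP proteins, fell from 63.7 and 69.1 to 10.8 and 10.8 CPM (log2 -2.62), whereas control had 11.5 and 12.2 CPM and LPS 13.9 and 14.7 CPM. Klf4, a transcription factor of monocyte differentiation, fell from 91.0 and 82.1 to 14.6 and 17.2 CPM (log2 -2.44), with 14.6 and 14.7 CPM in LPS. For Trib1 and Klf4 the 2 LPS groups lay close together, while LA stood far above control.
Arrdc3, an arrestin family regulator of receptor traffic, fell from 82.7 and 71.5 to 15.6 and 16.7 CPM and Thbs1, the matrix protein thrombospondin 1, from 243.5 and 241.8 to 59.6 and 58.3 CPM (log2 -2.04, SE 0.09). Zfp398, Nr4a2 and Sbk1, a kinase gene, complete the 10 with log2 values of -2.20, -2.16 and -2.11. For 8 of the 10 the LA level was above control by edgeR's test, by log2 1.29 for Thbd to 4.08 for Epha2. The exceptions were Zfp398, with 14.4 and 11.9 CPM in LA and 11.4 and 11.2 CPM in control, and Sbk1, with 13.9 and 14.2 CPM and 9.01 and 11.4 CPM. These LA against control values share the LA libraries with the falls. Ranking by the fall favours genes that stand high in LA. No share of all tested genes called higher in LA than in control stands beside the 8 of 10. That count is therefore no result about the falls.

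**Figure D4:**
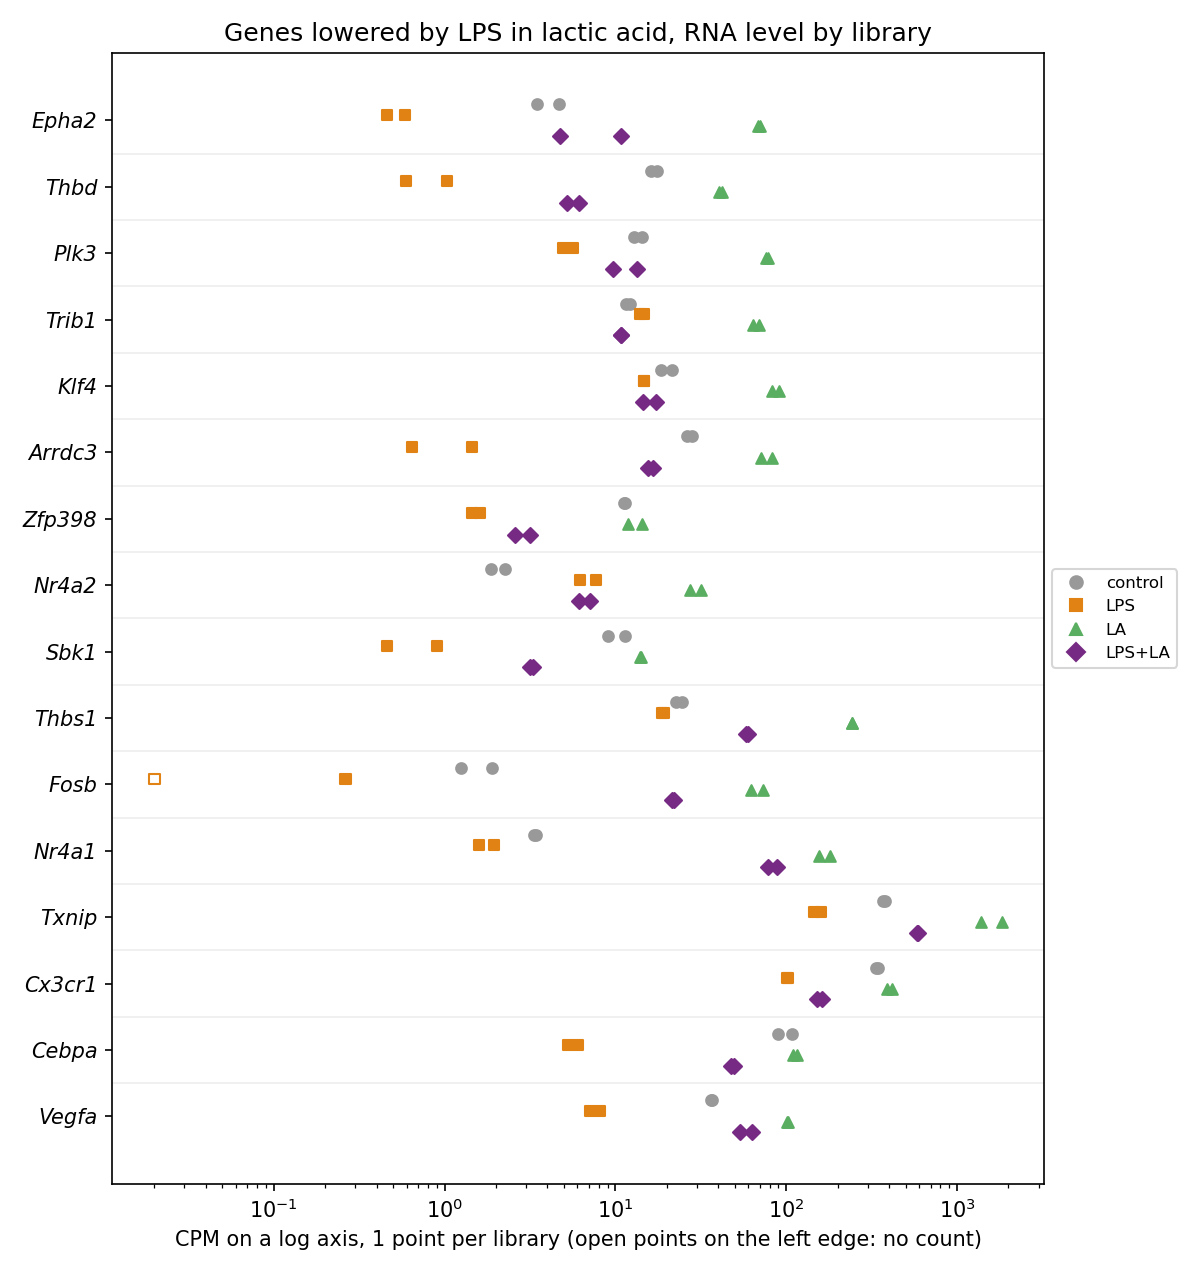
RNA level in CPM, on a log axis, of 16 genes that fell with LPS in LA, 1 point per library for control, LPS, LA and LPS+LA (2 each). The LA triangles lie to the right of the LPS+LA diamonds for each gene, and for genes such as Epha2, Nr4a1 and Fosb also far to the right of control.

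Immediate early and cAMP-responsive genes fell and rose side by side. In the list of immediate early and AP-1 genes, 22 were tested, with 9 risers and 6 fallers in LA (9 and 10 with total-count scaling) and medians of 0.082 in LA and 1.548 without. Junb, an AP-1 subunit, rose from 470.9 and 437.0 to 1170 and 1043 CPM in LA, near the 1300 and 1303 CPM of LPS. Fosb, another AP-1 subunit, fell from 73.5 and 62.1 to 22.1 and 21.4 CPM. Fos and Jun did not pass in LA (log2 -0.07 and -0.10). Klf2, a brake on macrophage activation, did not pass in LA either, at 54.0 and 66.0 CPM in LA and 62.7 and 63.7 CPM in LPS+LA, while LPS alone lowered it from 40.6 and 44.7 to 5.77 and 4.69 CPM, a difference of log2 3.10 between the effects. Of 19 listed targets of cAMP and its factor CREB 17 were tested, and 5 rose and 9 fell (4 and 10 with total-count scaling), with a median of -0.513 in LA and -0.309 without. Nr4a1, an early response nuclear receptor, fell from 180.4 and 156.5 CPM in LA to 78.2 and 87.9 CPM in LPS+LA (log2 -1.02), levels that remained far above the 3.44 and 3.33 CPM of control. Per1, a clock gene, fell from 108.3 and 83.6 to 38.8 and 32.4 CPM and Vegfa, the angiogenic growth factor, from 102.1 and 101.2 to 53.4 and 62.8 CPM, against 36.1 and 36.9 CPM of Vegfa in control. The risers included Pde4b (log2 2.48), a cAMP phosphodiesterase induced by LPS, Rgs16 (2.06), which speeds G protein shut-off, and Nr4a3 (2.10).

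Metabolic genes moved little, and several directions rested on scaling. The glycolysis and hypoxia list of 29 held 7 risers and 3 fallers in LA, or 4 and 12 with total-count scaling. Its 3 fallers were below the 14.6% called lower among all genes tested. With total-count scaling 1294 of all 12213 genes were called higher and 4260 lower, and list counts with that scaling are to be read beside these. Hk2, an inducible hexokinase, rose from 32.7 and 28.7 to 98.4 and 107.6 CPM (log2 1.75) and Pfkfb3, an activator of glycolytic flux, from 36.4 and 31.8 to 67.4 and 73.6 CPM (log2 1.05). Hif1a, the hypoxia factor, rose from 154.2 and 127.8 to 227.9 and 230.0 CPM (log2 0.70). Ldha, lactate dehydrogenase, and Slc16a3, a lactate exporter, did not pass, with log2 values of 0.05 and 0.11. With total-count scaling they turned to -0.16, which passed (edgeR adjusted p = 0.0483, range over its alternatives 0.0483 to 0.978), and to -0.10, which did not. The 28 genes of oxidative phosphorylation held 2 risers and 1 faller, or 0 and 9 with that scaling. The 2 risers and 1 faller were below the shares over all genes tested (15.9% higher, 14.6% lower) and are no result about that list. Nor are the 9 fallers with total-count scaling, which were below the share over all genes with that scaling.
Cholesterol and fatty acid synthesis genes fell: of 22 tested, 0 rose and 11 fell, and 0 and 19 with total-count scaling, with medians of -0.329 in LA and -0.331 without. For 10 of the 22 the LPS effect was called higher in LA and for 4 lower (16 and 2 with total-count scaling), with a median difference of 0.285. Scd2, a fatty acid desaturase, fell from 696.9 and 530.0 to 263.6 and 268.3 CPM (log2 -1.21), and Fasn, fatty acid synthase, from 134.4 and 115.2 to 83.2 and 82.5 CPM. LA replicate 2 was below LA replicate 1 for each of the 22 members, a gap of median log2 -0.275, and without LA replicate 1 the list held 1 riser and 9 fallers and without LA replicate 2 it held 0 and 15. Its part in the result was not tested.
Txnip, an inhibitor of glucose uptake that responds to lactic acid, fell from 1827 and 1380 CPM in LA to 593.5 and 583.1 CPM in LPS+LA (log2 -1.45), close to its fall with LPS alone (-1.29). The difference between these was -0.16 (SE 0.14), which did not pass the test (edgeR adjusted p = 0.394).

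Cell cycle genes fell less in LA than without it. Of 30 cell cycle genes, 1 rose and 9 fell in LA (1 and 24 with total-count scaling), with a median of -0.121, whereas without LA 1 rose and 27 fell with a median of -0.977. For 25 of the 30 the LPS effect was higher in LA and for 1 lower, or 29 and 1 with total-count scaling. E2f2, a transcription factor of S phase entry, fell from 125.0 and 114.1 to 53.7 and 53.4 CPM in LA, but from 73.5 and 75.9 to 2.79 and 4.30 CPM without. Cdc6, which licenses replication origins, fell from 27.6 and 28.7 to 12.95 and 9.32 CPM in LA, and from 26.8 and 26.98 to 0.907 and 1.72 CPM without. Ccnd2, a D-type cyclin, was the 1 riser (log2 1.03 in LA, 3.12 without).

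Regulators and surface receptors of macrophages showed both directions. Among 16 regulators, 5 rose and 6 fell in LA (3 and 6 with total-count scaling), and the LPS effect was higher in LA for 9 and lower for 5. Cebpa, a factor of myeloid identity, fell from 109.3 and 115.0 to 49.6 and 47.3 CPM in LA, but from 89.4 and 107.9 to 5.25 and 6.01 CPM without. Irf8, a macrophage lineage factor, rose by log2 1.18 in LA and 3.11 without. The 25 surface receptors held 8 risers and 4 fallers, or 6 and 9 with total-count scaling. Their 4 fallers were near the 14.6% called lower among all genes tested. The 9 fallers with total-count scaling were near the share over all genes with that scaling (4260 of 12213). Cd300lb, an activating myeloid receptor, stood at 160.5 and 173.2 CPM in LA and 62.9 and 63.8 CPM in LPS+LA, while LPS alone left 1.81 and 2.38 of 149.9 and 148.1 CPM. Cx3cr1, the fractalkine receptor, fell in both settings (log2 -1.36 in LA, -1.75 without). Ptafr, the receptor of platelet-activating factor, rose more in LA (log2 2.48 against 0.82): it went from 31.2 and 35.9 to 182.6 and 192.1 CPM, where control had 118.1 and 127.1 CPM and LPS 217.3 and 216.7 CPM.

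The remaining lists are given by their counts, to be read beside the 15.9% higher and 14.6% lower of all genes tested. The counts with total-count scaling are to be read beside the 1294 higher and 4260 lower of all 12213 genes with that scaling. Of 16 tested proton-sensing receptors and pH regulators 5 rose and 3 fell (4 and 4 with total-count scaling). Gpr132, a receptor of the proton-sensing family, rose from 37.6 and 39.2 to 64.0 and 62.5 CPM and the bicarbonate transporter gene Slc4a7 from 56.0 and 45.6 to 113.3 and 137.0 CPM. Gpr65, another proton sensor, did not pass (log2 0.18), and Arrdc4, a relative of Txnip, fell from 52.5 and 41.7 to 23.1 and 25.4 CPM. Antioxidant targets of NRF2 had 7 risers and 1 faller of 20 (5 and 8 with total-count scaling), among them Sqstm1, the autophagy receptor p62 (log2 1.57), and Slc7a11, the cystine importer (2.40). ATF4 stress genes had 3 and 1 of 20 (2 and 5), with Ppp1r15a, a phosphatase cofactor of stress recovery, at log2 2.61 (3.25 without LA replicate 2) and Sesn2 at -1.29. In a fit of the 4 libraries alone Ppp1r15a did not pass (edgeR adjusted p = 0.0917, the highest over its alternatives). LXR targets had 6 and 1 of 15 (0 and 4), lysosome genes 2 and 1 of 24 (1 and 14) and heat shock chaperones 2 and 0 of 15 (0 and 4). With TMM scaling the counts for ATF4, lysosome and heat shock genes were at or below the share over all genes in both directions, and are no result about those lists. Hspb1, a small heat shock protein gene, had 5.58 and 19.8 CPM in the LA libraries and 35.6 and 37.7 CPM in LPS+LA. It did not pass with both LA libraries (log2 1.53), but did without LA replicate 1 (0.89) or LA replicate 2 (2.72).

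The greatest reductions of an LPS effect in LA were those of Ccl17, Nos2, Csf2, Edn1, Il1a, Il12b, Il6 and Zfp811. Edn1, the vasoconstrictor endothelin 1, shows the pattern: LPS alone took it from 0.0404 and 0.0802 to 270.3 and 249.1 CPM, while LA held 0.176 and 0.0893 CPM and LPS+LA 0.535 and 1.00 CPM. The difference between its LPS effects was log2 -9.45 (SE 1.24, edgeR adjusted p = 9.99e-07). All 8 had between 0 and 3 counts over the control libraries, so the fitted values are no bounds. Il6 and Csf2 did not pass this test without LA replicate 2, where the LA group holds no count of either.

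Some genes responded to LPS more in LA than without it. Besides Tnfsf9, the most enlarged effects included those of Bcl2, Btbd3, Arc, Gab1, Iffo2 and Elk3, and each of these 6 genes was called higher in LA and had a negative LPS effect without LA. Bcl2, which blocks apoptosis, went from 24.3 and 30.1 to 48.6 and 45.8 CPM in LA, but from 27.3 and 23.98 to 6.87 and 6.74 CPM without, a difference of log2 2.71. Its groups did not overlap in either setting. Arc stood at 2.20 and 7.81 CPM in the LA libraries, and its rise in LA did not pass with total-count scaling or without LPS+LA replicate 1 or 2. The rise of Elk3 in LA (log2 0.30) did not pass with total-count scaling (0.09) or without LPS+LA replicate 2 or LA replicate 1.
The reverse pattern, a rise without LA and a fall in LA, was clearest in Nr4a2, an early response nuclear receptor. It fell from 31.7 and 27.4 to 7.07 and 6.11 CPM in LA and rose from 1.86 and 2.25 to 7.71 and 6.21 CPM without, so the 2 LPS groups overlapped and the baselines lay far apart. The difference was log2 -3.92 (SE 0.27, edgeR adjusted p = 3.25e-11). Btg2, an antiproliferative gene, fell from 32.6 and 31.6 to 16.3 and 17.1 CPM in LA and rose from 9.50 and 9.38 to 32.5 and 30.6 CPM without. Flrt3 and Asap3 followed the same course at lower levels, with 1.39 and 2.32 and with 0.749 and 1.79 CPM in LPS+LA, and their falls in LA did not pass without LPS+LA replicate 1 or LA replicate 2.

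Open chromatin near the risers was read from separate ATAC-seq samples of these 2 treatments, 3 per group, all on sequencing lane 6 according to the file headers. The LPS+LA samples held 85571, 99435 and 99416 called peaks and the LA samples 76680, 80820 and 78940, and the lists hold no read depth. After peaks were merged at an overlap of 1 bp, 7847 sites had a peak in each LPS+LA sample and in no LA sample, and 657 sites the reverse. Of 702 genes that rose by log2 1 and had a position, 528 lay within 50 kb of a gained site (75.2%, 95% Wilson interval 71.9 to 78.3). The share was 44.6% (39.4 to 50) of 336 genes that fell by log2 1 and 50% (49 to 51.1) of 8452 genes not called. Gained sites lay near risers more often at each distance, with 55.1%, 18.8% and 25.2% at 10 kb and 85.5%, 61.9% and 66.3% at 100 kb. These intervals treat genes as independent, which neighbours sharing a site are not, so the shares are a description without a test. Without ATAC LPS+LA replicate 1, the sample with the fewest peaks of its group, 13176 sites were gained and the shares were 87.3%, 60.7% and 67.9%. Lost sites lay within 50 kb of 10.8% of risers, 8.93% of fallers and 7.25% of genes not called.

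**Figure D5:**
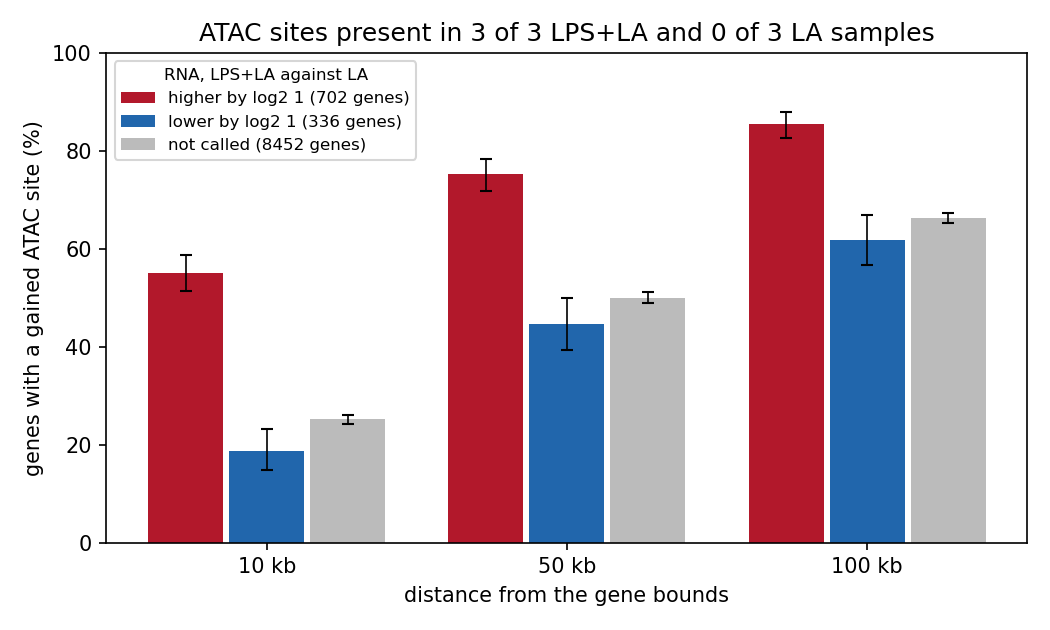
Percent of genes with a gained ATAC site (a peak in 3 of 3 LPS+LA and 0 of 3 LA samples) within 10, 50 or 100 kb of the gene bounds, for genes that rose by log2 1 in LPS+LA against LA, fell by log2 1 or were not called. Error bars are 95% Wilson intervals over genes, and the risers have the highest share at each distance (75.2% at 50 kb).

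At the gene starts themselves most chromatin was open already. In 72.8% of 551 risers with a promoter sequence the 300-base window around the start, from 250 bases before to 50 after, held a peak in all 6 samples, as it did in 86.8% of 266 fallers and 83.8% of 6782 genes not called. Acod1, Gbp5, Cxcl10, Rsad2, Tnf, Ccl3, Ptgs2 and Il6 were of this kind. A peak gained in LPS+LA was found for 18 risers (3.27%), 0 fallers and 16 genes not called (0.236%), and the 4 promoters printed above belong to the 18. Il12b, Csf2 and Cxcl9 had no start peak in any of the 6 samples.
Motif matches were counted on both strands of the same 300-base windows, and 1 stretch may count for several motifs. The NF-kB consensus was found in 10.9% of risers, 3.38% of fallers and 4.44% of genes not called, against 4.35% of all 27025 promoters of the table. The core of the interferon-stimulated response element, GAAA repeated after any 2 bases, was found in 11.1%, 1.5%, 3.02% and 3.49% of these groups, and the AP-1 motif TGANTCA in 10.9%, 4.89%, 4.67% and 7.93%. The CREB motif TGACGTCA was found in 2.9%, 3.01%, 3.41% and 1.88%. So the first 3 motifs were more frequent among risers than among fallers, and the fourth was not. A match is a description of the letters, not a binding site.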

How the data were processed

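RNA libraries were prepared, sequenced and quantified by a company, per the labels' protocols, and the submitters' processing notes name HISAT, Bowtie2 and GRCm38.p6; neither notes nor labels name the counting tool or its strand setting. The authors deposited expected counts per gene (6.069% of values not whole), with TPM and FPKM beside them; expected counts were rounded for tests, TPM served only to rank transcripts, and the authors' FPKM were not used. ATAC-seq peaks carry a score per peak, which the authors' peak caller (MACS2 2.0.10 after BWA 0.5.9 on mm10, per the file headers and the submitters' processing notes) gave for each sample separately; no read shift is stated.

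Counts were fitted with edgeR 4.0.16 (R 4.3.3; robust quasi-likelihood fit, TMM, filterByExpr with a minimum count of 10 and a minimum total of 15), 1 term per group over all 10 libraries, with Benjamini-Hochberg adjustment over the 12213 genes tested and a two-sided threshold of 0.05. All groups shared the estimate of spread because 2 libraries per group give few degrees of freedom. On simulated counts for LPS+LA against LA the test recovered 56%, 88%, 96% and 100% of genes changed by log2 0.5, 1, 2 and 3, with 4.49% false calls. The simulation changed 50 genes per size out of 12212, up or down at random, from 1 mean shared by all groups. Far more genes were called in the data, so it did not test the scaling. Libraries held 18668666 to 20219895 counts. Of the gene IDs, 15959 matched RefSeq and 100 did not, and 23 symbols that read as dates were taken from RefSeq. The replicates of a group differed by more than sampling noise (chi-square over degrees of freedom 10.7 in LA and 7.115 in LPS+LA).

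Genes and gene lists were chosen with earlier results of these data known. The rule named the 10 largest rises and falls past the threshold with a mean of at least 10 CPM and no overlap, up to 4 members per list with the smallest adjusted p, a panel of LPS and lactate genes, and the 8 most reduced, 8 most enlarged and 5 opposite LPS effects. B2m, Bst2, Ccl4, Ccl7, Cxcl2, Cxcl3, Cyld, Fos, Fosb, Gpr65, Irf7, Jun, Klf2, Nfkb1, Nfkb2, Osm, Per1, Ptgs1, Rel, Rela, Relb, Tap1, Tap2 and Tlr9 fall outside it and were chosen after their values were seen. Some genes that the rule or lists hold are not reported here. Arg1, of the panel, did not pass the filter (3 and 5 counts in LA, 2 and 0 in LPS+LA). Alternatives were DESeq2 1.42.0, its size factors, total-count scaling, no count filter, a fit of the compared libraries alone, a replicate block, each library left out in turn, and control replicate 1 and LPS+HCl replicate 2 left out together. ATAC peaks were merged across samples at an overlap of 1 bp, and distances were taken from the RefSeq gene bounds of GRCm38.p6. Promoters and gene positions come from the RefSeq tables of that build.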

Additional observations from a re-analysis of the deposited data

Results flagged for a closer look

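The 19 genes below were picked out because the test of the difference itself, the LPS effect with LA minus the LPS effect without LA, passed at an adjusted p under 0.05 by edgeR. They are among the extremes that the naming rule selected among the 5409 genes called for that difference (44.3% of those tested).

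Reduced LPS effects in LA were found for chemokine, cytokine and vasoactive genes. The differences were log2 -12.08 for Ccl17, -9.88 for Nos2, -9.46 for Csf2, -9.45 for Edn1, -9 for Il1a, -8.83 for Il12b, -8.7 for Il6 and -8.23 for the zinc finger gene Zfp811. Zfp811 stood at 27.7 and 26.4 CPM with LPS alone and at 0.535 and 1.00 CPM in LPS+LA. The values of Ccl17 without LA replicate 1 (-8.55) and of Csf2 and Il6 without LA replicate 2 (-7.28 and -6.53) did not pass.

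Enlarged LPS effects were log2 2.71 for Bcl2, 2.63 for Btbd3, 2.48 for Arc, 2.45 for Gab1, 2.28 for Tnfsf9, 2.14 for Iffo2 and 2.1 for Elk3. Gab1, an adaptor of growth factor receptors, was also among those called in opposite directions, going from 7.29 and 10.0 to 18.57 and 17.96 CPM in LA and from 4.57 and 4.97 to 2.20 and 1.45 CPM without. The difference of Arc did not pass in 7 of its alternatives, those that left out LPS+LA, LPS or control libraries.

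The opposite course, down in LA and up without, was taken by Nr4a2 (difference -3.92), Flrt3 (-4.49), Btg2 (-2.68) and Asap3 (-5.48).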

How the results depend on the processing

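With 2 libraries per group, changes of log2 0.5 were often missed (56% recovered in simulated counts for LPS+LA against LA, 30% for the difference). Counts of calls moved by over 1.5 times only with total-count scaling, by whose construction the TMM factors (1.155 and 1.171 in LA, 1.001 and 1.01 in LPS+LA) drop out. It gave 4260 genes lower, 623 lower by log2 1, 5917 with a higher and 1294 with a lower LPS effect in LA, 1058 higher in both settings and 3974 lower in both. Of the 3726 genes called, 3078 were called in the same direction with that scaling, 3233 by DESeq2's Wald test, 3051 in a fit of the 4 compared libraries and 2847 to 3006 without 1 of these. Leaving out 1 library gave 1667 to 1868 genes higher and 1343 to 1564 lower (660 to 706 and 332 to 356 by log2 1), 2076 to 2434 higher and 2443 to 2840 lower differences, 1496 to 1703 and 1086 to 1301 genes called higher or lower in both settings and 124 to 193 in opposite directions. Replicate numbers did not pair LA with LPS+LA libraries (r of deviations -0.0154), and a replicate block gave 1925 genes higher and 1762 lower, and 2476 higher and 2904 lower differences. Signs turned with total-count scaling for Ldha (-0.16, edgeR adjusted p = 0.0483) and, without passing the test, for Hspa5 (-0.0435), Slc16a3 (-0.0973), Ctsl (-0.078) and Cox5a (-0.0729), and for Ccl17, which ranged from -3.54 to 3.75 with 1 library left out (-3.54 without LPS+LA replicate 1, -0.68 without LA replicate 2); the cause was not tested. Of the other log2 values of named genes, 1199 kept direction and side of the threshold, 57 no longer passed and 7 newly passed.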
